A study of Mus musculus with 9 samples.

Results

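The regions described here are 1100 stretches of 1 kb (tiles) on mouse chromosomes 1 to 19. These tiles are rich in CpG dinucleotides and were nearly fully methylated in the DMSO control cells. They were chosen by 3 measured values: 10 or more reads in each of 9 libraries, 40 or more distinct CpG positions listed in any library, and a pooled methylation level of 80% or above in the 2 DMSO libraries. Of 66788 tiles with enough reads, 64685 were autosomal, 10262 of these had 40 or more CpG positions, and 1100 of those (10.7%) reached 80% in DMSO. The DMSO level is therefore a description of how the tiles were selected and not a finding, and every comparison with DMSO shares that selection. The tiles are called dense methylated tiles below, and a level is always the percentage of reads that were methylated.

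Methylation was read by reduced representation bisulfite sequencing (RRBS), which sequences bisulfite-converted DNA enriched for CpG-rich fragments. All libraries came from Abl.1, a clonal immortalised B cell line made from an F1 female of the cross 129S1/SvImJ x CAST/EiJ, collected on day 2. Cells in 1% DMSO (2 libraries) were set against cells in 0.2 µM 5-aza-dC (2 libraries), 2 µM (3 libraries) and 10 µM (2 libraries). The drug came from a DMSO stock, and live cells were recovered by density centrifugation. Replicates are labelled as library preparations, so p-values may measure only technical spread. A single clone was studied, and reads of the parental alleles were not separated here.

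In mammals most CpGs are methylated and rare, whereas CpG islands, the dense clusters found at many promoters, usually stay unmethylated. Methylated islands are the exception, and are known from germ cell genes, imprinted genes and silenced developmental genes. DNMT1 copies methylation onto the new strand after replication. The cytidine analogue 5-aza-dC enters replicating DNA and traps this enzyme, so that methylation is diluted as cells divide.

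Promoter sequences show what such a tile looks like. Each run below is the 250 bases before a RefSeq gene start (GRCm38.p6), 5′ to 3′ on the gene's strand, with every CpG in capitals. Windows were eligible where they lay wholly inside a dense methylated tile and held 40 or more pooled reads per group. Among the tiles with such a window, the first 3 belong to those with the lowest level at 0.2 µM and the next 3 to those with the highest. The last 3 are the eligible germ cell promoters with the most CpGs.
Grin2c: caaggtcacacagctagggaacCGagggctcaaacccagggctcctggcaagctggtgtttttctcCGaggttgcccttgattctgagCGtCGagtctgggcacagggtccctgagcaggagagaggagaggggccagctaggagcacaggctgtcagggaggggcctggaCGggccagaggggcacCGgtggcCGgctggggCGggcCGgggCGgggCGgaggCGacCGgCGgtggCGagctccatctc
Gng13: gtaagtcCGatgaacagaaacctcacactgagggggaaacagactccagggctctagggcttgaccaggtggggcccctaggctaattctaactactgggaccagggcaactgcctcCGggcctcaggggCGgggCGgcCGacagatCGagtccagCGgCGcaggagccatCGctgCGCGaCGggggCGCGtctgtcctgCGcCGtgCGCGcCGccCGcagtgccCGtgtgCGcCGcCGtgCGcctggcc
Eci1: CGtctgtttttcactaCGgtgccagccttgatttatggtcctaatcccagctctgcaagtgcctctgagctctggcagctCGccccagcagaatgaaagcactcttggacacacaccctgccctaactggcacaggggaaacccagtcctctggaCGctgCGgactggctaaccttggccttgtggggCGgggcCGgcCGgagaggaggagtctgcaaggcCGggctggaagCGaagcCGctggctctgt
Kazn: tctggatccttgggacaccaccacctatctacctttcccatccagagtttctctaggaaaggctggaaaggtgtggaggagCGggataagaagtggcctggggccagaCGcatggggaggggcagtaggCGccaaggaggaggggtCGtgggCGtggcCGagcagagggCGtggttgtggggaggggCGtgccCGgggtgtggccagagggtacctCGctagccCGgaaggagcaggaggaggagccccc
Gm40862: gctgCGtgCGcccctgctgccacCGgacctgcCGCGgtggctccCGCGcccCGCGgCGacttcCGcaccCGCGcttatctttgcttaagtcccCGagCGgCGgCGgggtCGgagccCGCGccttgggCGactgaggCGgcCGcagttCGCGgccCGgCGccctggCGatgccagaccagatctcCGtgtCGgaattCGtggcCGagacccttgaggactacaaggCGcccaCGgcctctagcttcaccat
Lgi2: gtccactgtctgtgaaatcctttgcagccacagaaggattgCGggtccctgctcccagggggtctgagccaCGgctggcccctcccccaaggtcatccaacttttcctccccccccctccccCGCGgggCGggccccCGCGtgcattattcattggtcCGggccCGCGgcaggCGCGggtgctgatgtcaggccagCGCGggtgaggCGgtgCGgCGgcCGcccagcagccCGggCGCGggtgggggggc
Boll: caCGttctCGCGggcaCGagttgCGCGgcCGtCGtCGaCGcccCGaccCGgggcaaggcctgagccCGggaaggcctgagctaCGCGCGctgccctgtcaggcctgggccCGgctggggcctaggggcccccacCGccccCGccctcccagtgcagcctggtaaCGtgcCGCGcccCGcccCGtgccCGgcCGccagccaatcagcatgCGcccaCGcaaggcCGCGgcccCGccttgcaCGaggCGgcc
Ddx4: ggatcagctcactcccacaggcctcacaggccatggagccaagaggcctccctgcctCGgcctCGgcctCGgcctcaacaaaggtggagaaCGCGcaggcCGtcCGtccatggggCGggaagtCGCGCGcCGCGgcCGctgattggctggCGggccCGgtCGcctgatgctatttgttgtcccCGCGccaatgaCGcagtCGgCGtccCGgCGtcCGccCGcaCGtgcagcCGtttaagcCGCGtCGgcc
Tdrd5: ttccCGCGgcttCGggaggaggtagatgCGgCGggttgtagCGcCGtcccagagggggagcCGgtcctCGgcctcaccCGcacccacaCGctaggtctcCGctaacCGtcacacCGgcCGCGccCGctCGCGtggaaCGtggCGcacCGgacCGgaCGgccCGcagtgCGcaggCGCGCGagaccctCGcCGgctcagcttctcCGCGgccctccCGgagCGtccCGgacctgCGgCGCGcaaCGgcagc

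The first 6 windows lie in tiles picked by their 0.2 µM level, so their order at that dose restates the choice. Window levels from pooled reads are given as a description, and they rest on the CpGs that were read. These were 7 of 15 in Grin2c, 8 of 11 in Eci1 and 14 of 21 in Lgi2, and a larger share in the other windows shown. Grin2c, which encodes a subunit of the NMDA glutamate receptor (chr11:115267244-115267493, minus strand, 15 CpGs), read 90.6% in DMSO and 43.9%, 52.1% and 86.1% at 0.2, 2 and 10 µM over 53 to 144 reads. Gng13, a G protein gamma subunit (chr17:25717278-25717527, plus strand), read 87.5%, 41.6%, 57.2% and 67.7%. Eci1, an enzyme of fatty acid oxidation (chr17:24426433-24426682, plus strand), read 90.4%, 36.5%, 68.6% and 80%. All 3 were lower at 0.2 µM than at 2 µM.

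The other windows shown had the reverse order between these doses. Kazn (chr4:142239402-142239651, minus strand) read 66.7%, 71.4%, 56.8% and 62.5%, so this promoter window, at 54 DMSO reads, was below the 80% that its whole tile reached. Gm40862 (chr12:23634393-23634642, minus strand) read 97.8%, 78.9%, 60.8% and 81.4%. Lgi2, a secreted neuronal protein (chr5:52566307-52566556, minus strand), read 98.2%, 84.1%, 61.4% and 83.5%.

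Among the germ cell genes, Boll, an RNA-binding protein of the Dazl family (chr1:55362729-55362978, minus strand, 33 CpGs), read 95%, 76.4%, 54.3% and 71.7%. Ddx4, the Vasa RNA helicase (chr13:112652311-112652560, minus strand, 31 CpGs), read 97.3%, 74.1%, 48.3% and 77.7%. Tdrd5, a Tudor domain protein of the piRNA pathway (chr1:156303349-156303598, minus strand, 40 CpGs), read 88.6%, 81.9%, 59.6% and 68.7%. The eligible germ cell windows not shown were those of Henmt1 (30 CpGs) and Mael (18 CpGs). Henmt1 was lower at 0.2 µM than at 2 µM, with 96.3%, 62.7%, 72.5% and 76.0%. Mael had the reverse order, with 93.9%, 81.9%, 55.9% and 70.7%. Over the 229 coding gene promoter windows inside dense methylated tiles the median was 23 CpGs. It was 22 over 3761 windows inside equally dense tiles under 20% in DMSO, and 10 over all 20063 coding windows on the autosomes of the table. The promoter table holds no chromosome 18, so 43 of the 1100 tiles could not be placed against gene starts.

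At every dose the dense methylated tiles read lower than in the DMSO libraries that chose them, and they read higher at 0.2 µM than at 2 µM. Their mean level was 90% in both DMSO libraries. It was 59.1% and 58.9% with 0.2 µM, then 55.0%, 55.4% and 55.9% with 2 µM, and 71.0% and 71.1% with 10 µM. The libraries of the 4 groups did not overlap. The group mean was 58.996% ± 0.181 (SD, n = 2) at 0.2 µM, which is 65.6% of the DMSO level. It was 55.5% ± 0.463 (SD, n = 3), or 61.6% of the DMSO level, at 2 µM. With 10 µM it was 71.1% ± 0.120 (SD, n = 2), or 78.97%.

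The 24103 autosomal tiles that were also at 80% or above in DMSO but had under 40 CpG positions had another order. Their mean was 91.4% ± 0.103 (SD, n = 2) in DMSO, 34.7% ± 0.276 (SD, n = 2) with 0.2 µM, 50.6% ± 0.668 (SD, n = 3) with 2 µM and 69.4% ± 0.160 (SD, n = 2) with 10 µM. Dense methylated tiles thus stood above the others by 24.6 and 24.0 percentage points in the 0.2 µM libraries, by 5.07, 4.72 and 4.66 at 2 µM and by 1.67 and 1.62 at 10 µM. In DMSO they stood lower, with differences of -1.33 and -1.49. The gap between dense and other tiles was largest in both 0.2 µM libraries.

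**Figure D1:**
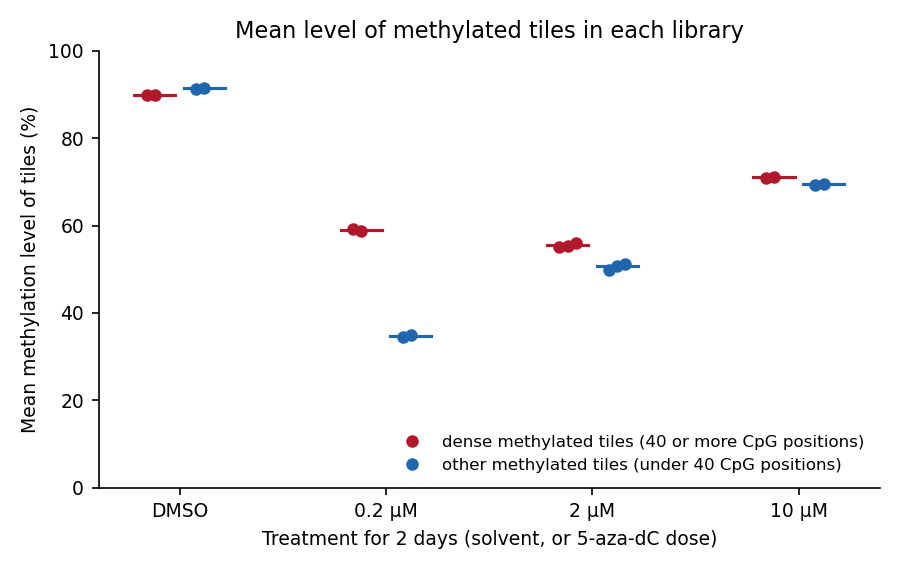
Mean methylation level (%) of the 1100 dense methylated tiles and of the 24103 methylated tiles with under 40 CpG positions, a point per library and a bar at the group mean, by treatment. Dense tiles lie near 59% and the others near 35% at 0.2 µM, while both lie close together in DMSO and at 10 µM.

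Levels at 0.2 µM were higher with more CpG positions, over sparse and dense tiles alike. Among methylated tiles the 0.2 µM mean was 32.8% with 1 to 9 positions, 46.9% with 30 to 39 and 52.1% with 40 to 49. It reached 57.5% with 50 to 59 positions, 62.0% with 60 to 79, 64.6% with 80 to 99 and 67.5% ± 0.446 (SD, n = 2) in the 120 tiles with 100 or more. In the dense classes the 2 µM mean stayed between 55.2% and 56.3%, and the 10 µM mean between 69.8% and 72.0%. Below 40 positions these also differed by class, from 48.8% with 1 to 9 positions to 55.1% with 30 to 39 at 2 µM, and from 67.4% with 1 to 9 to 73.2% with 20 to 29 at 10 µM. Hence 48.0% of tiles with 40 to 49 positions, but 97.5% of those with 100 or more, had a higher mean at 0.2 µM than at 2 µM. Across the 1057 classed tiles Spearman's rho between CpG positions and the 0.2 µM level was 0.43, against 0.05 at 2 µM and -0.07 at 10 µM. These tiles share libraries and are not independent.

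Denser tiles also collected more reads, with a median of 1628 reads over all libraries at 40 to 49 positions and 4490.5 at 100 or more. Within tiles of 2000 to 3999 reads the order was the same. The 0.2 µM mean was 48.0% in 142 tiles under 40 positions, 54.9% in 207 with 40 to 59 and 63.6% in 285 with 60 or more, and the 2 µM means were 52.8%, 53.5% and 55.5%.

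**Figure D2:**
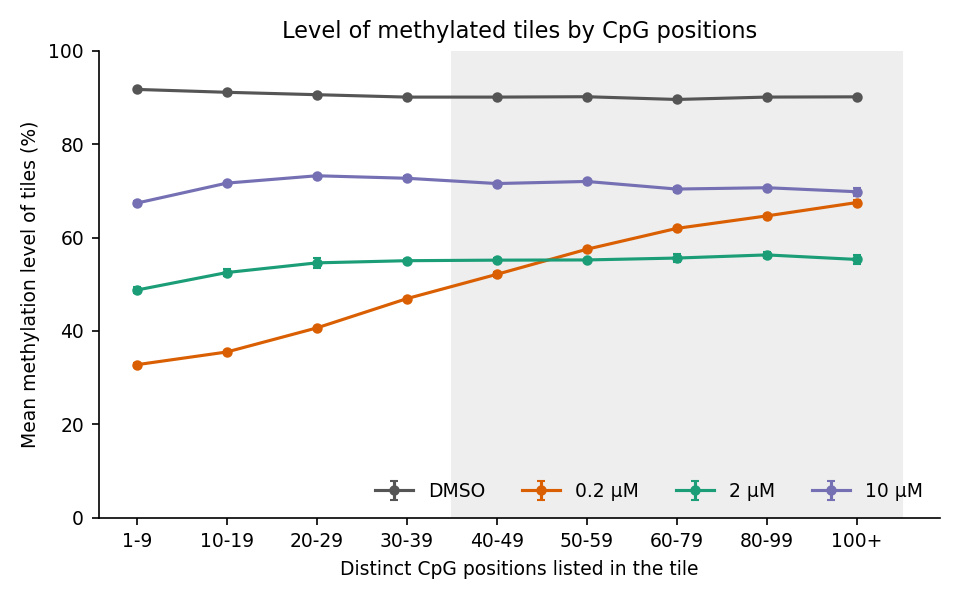
Mean methylation level (%) of all autosomal tiles at 80% or above in DMSO, by the number of distinct CpG positions, with the SD over libraries as error bars; the grey area holds the 1100 dense methylated tiles. The 0.2 µM line rises from 32.8% to 67.5% and crosses the 2 µM line between 40 to 49 and 50 to 59 positions, while within the grey area the 2 µM line stays between 55.2% and 56.3% and the 10 µM line between 69.8% and 72.0%.

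Individual dense methylated tiles differed most from each other at 0.2 µM. Tile means ranged from 11.8% to 84.3% there (SD over tiles 13.1 points), with 114 tiles under 40% and 214 at 70% or above. At 2 µM the SD over tiles was 6.59, with 7 tiles under 40% and 25 at 70% or above. At 10 µM it was 8.16, with 1 and 592. The 2 µM tile means average 3 libraries and the others 2. Within single libraries the SD over tiles was 13.8 and 13.6 at 0.2 µM, 8.68 to 9.74 at 2 µM, and 9.14 and 10.6 at 10 µM, so 2 and 10 µM overlapped on this scale and 0.2 µM lay above both. The differences among tiles recurred between libraries at 0.2 µM: Pearson's r across the 1100 tiles was 0.81 between both libraries, against 0.63 in DMSO, 0.22 to 0.31 at 2 µM and 0.36 at 10 µM. The 0.2 µM levels had r between -0.02 and 0.02 with DMSO levels, which the selection had confined to a narrow range.

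At single CpGs, of 72621 positions listed in these tiles, 14396 had 10 or more pooled reads in every group. Among them 84.5% were at 80% or above in DMSO and 21.5%, 2.08% and 24.9% at 0.2, 2 and 10 µM. At 2 µM 97.1% lay between 20% and 80%, and 2.70% at 0.2 µM and 0.799% at 2 µM were under 20%. Median reads per CpG were 14 in DMSO and 21, 37 and 18 at 0.2, 2 and 10 µM, and the 2 µM reads pool 3 libraries. The part of this depth in the shares was not tested.

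**Figure D3:**
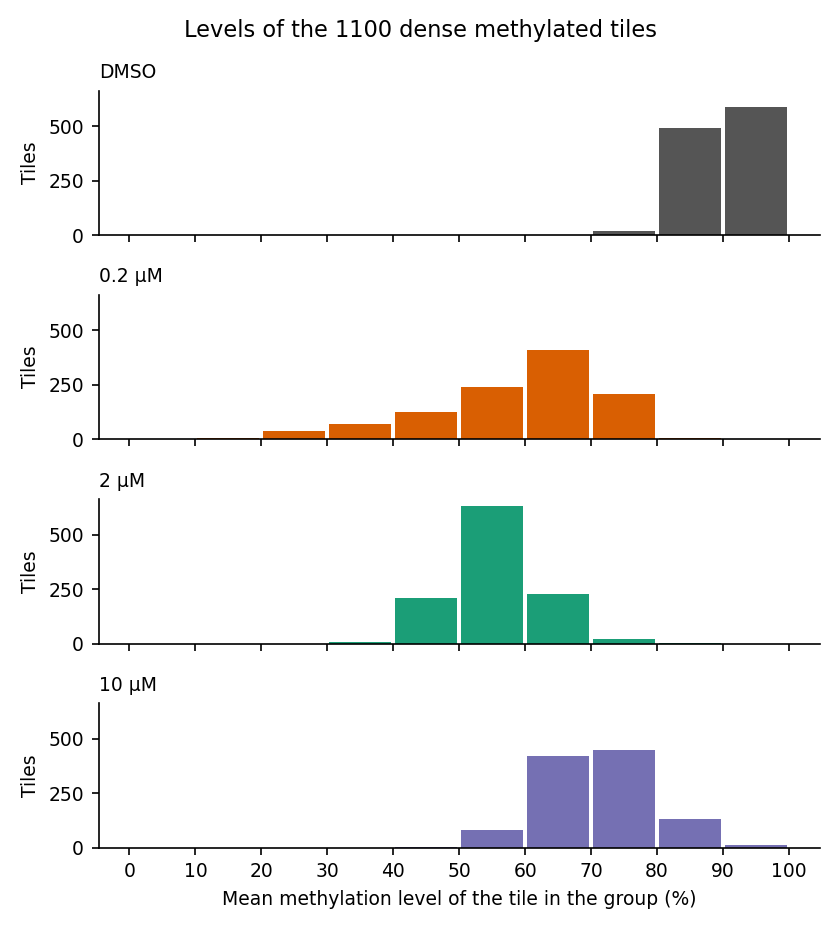
Number of dense methylated tiles by mean methylation level in the group, in classes of 10 percentage points, a panel per group. The 0.2 µM panel is the widest, from 11.8% to 84.3%. The 2 µM means average 3 libraries and the others 2.

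Against DMSO, 1076, 1082 and 759 of the 1100 tiles passed the threshold as lower at 0.2, 2 and 10 µM, and none as higher. Over all 66788 tiles 62.7%, 48.7% and 13% did so. A call here and below is an adjusted p under 0.05 in a binomial test of the tile's reads moderated with limma and adjusted over all 66788 tiles. Because DMSO values chose the tiles, nothing is read from these counts. The 10 µM count rested on both controls. Without either DMSO library most of these calls were lost, among dense methylated tiles and among all tiles alike.

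Methylation levels at the drug doses took no part in the choice of tiles, although the minimum of reads and the listing of CpG positions cover all libraries. The dispersion of the test is also estimated over all 9 libraries, DMSO included. For 2 µM against 0.2 µM, 152 of 1100 dense methylated tiles (13.8%) were lower at 2 µM, where 0.355% of all tiles (237) were, so dense methylated tiles were 64.1% of all such calls. Another 78 (7.09%) were higher at 2 µM, and 9.22% of all tiles were, so this share is near the background. Among methylated tiles with under 40 positions 0.216% were lower and 16.8% higher. By direction alone, 764 of 1100 had the lower mean at 2 µM, against 20% of all tiles, and in 458 the libraries did not overlap in this direction (41.6%, against 4.24% of all tiles). The 152 had a median of 79 CpG positions and means of 71.6% at 0.2 µM and 53.2% at 2 µM. The 78 had a median of 48 positions and means of 31.3% and 56.1%. Median reads over all libraries, summed over CpG positions, were 3621 in the 152, 2128 in the 78 and 2431.5 over all 1100. The part of depth in these shares was not tested.

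Few calls for single tiles in this comparison were kept without either 0.2 µM library, among dense methylated tiles and among all tiles alike. Such a fit leaves 1 library in the group, so its spread was taken from the other groups. The cause of the loss was not tested. Without 0.2 µM replicate 1 or 2 the 0.2 µM mean over the dense methylated tiles was 58.9% and 59.1%, against 55.5% at 2 µM. Without either DMSO library the lower calls were also fewer, among dense methylated tiles and among all tiles. With limma on tile levels 13 were lower and 21 higher, where 0.123% and 5.81% of all tiles were. Centred on the median change of all tiles, which was 0.48 in natural log odds, 464 were lower and 6 higher, where 1.43% and 0.654% of all tiles were.

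Of the 3 called tiles with the largest fall from 0.2 µM to 2 µM, 1 overlapped no gene (chr1:178276001-178277000, mm10, 51 CpG positions). It read 93.0% and 93.4% in DMSO, 82.6% and 84.9% with 0.2 µM, then 56.3%, 47.5% and 49.5% with 2 µM, and 85.8% and 79.7% with 10 µM, over 181 to 378 reads per library. The 2 µM libraries all lay below every other library. The difference between 2 µM and 0.2 µM was -32.7 points (adjusted p = 0.00121, and at most 0.0484 under any alternative), and that between 10 µM and 2 µM was 31.7 points (adjusted p = 0.00277).

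Maneal, an endomannosidase-like Golgi protein (chr4:124861001-124862000, in the gene, no start), read 89.1% and 91% in DMSO, 55.5% and 75.8% with 0.2 µM, then 24.6%, 31.8% and 36.0% with 2 µM, and 74.4% and 56.9% with 10 µM. Its fall of 34.8 points had an adjusted p of 0.0082, which was 0.056 without 0.2 µM replicate 1 and 0.196 without replicate 2. The Zfp993 tile (chr4:146580001-146581000), in a zinc finger gene, also overlaps Gm13233 and Vmn2r-ps16. It fell by 30.2 points from 81.7% and 79.2% to 55.5%, 51.5% and 43.5%. At 10 µM it read 94.7% and 100%, with as few as 11 reads in a library. Its adjusted p of 0.0201 was 0.174 and 0.128 without 0.2 µM replicates 1 and 2, 0.0763 without 2 µM replicate 3 and 0.0741 with a replicate block.

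Opposite to these was the tile inside Zfp385a, a zinc finger protein that binds p53 (chr15:103314001-103315000, 46 CpG positions, no gene start). It read 94.9% and 92.7% in DMSO, 12.3% and 11.3% with 0.2 µM, then 55.4%, 61.1% and 70.6% with 2 µM, and 88.0% and 80.2% with 10 µM, over 55 to 274 reads per library. The groups did not overlap, and this was the lowest 0.2 µM level of all 1100 tiles. It rose by 50.6 points from 0.2 to 2 µM (adjusted p = 0.000599, at most 0.0406 under any alternative) and by 72.3 points from 0.2 to 10 µM (adjusted p = 4.78e-06).

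Similar profiles were found in Zfp787 and Klf2. Zfp787 (chr7:6132001-6133000), a zinc finger gene, read 94.3% and 100% in DMSO, 18.2% and 20.3% with 0.2 µM, then 56.4%, 64.2% and 87.3% with 2 µM, and 85.5% and 79.6% with 10 µM. Its 50.0 point rise to 2 µM had an adjusted p of 0.00197, which was 0.0628 without 0.2 µM replicate 2. Klf2, a Krüppel-like factor that controls lymphocyte quiescence and trafficking (chr8:72320001-72321000), read 4.4% and 40.7% at 0.2 µM and 57.1%, 66.7% and 85.7% at 2 µM, with as few as 10 reads in a library. Its adjusted p of 0.0101 was 0.182 without 0.2 µM replicate 1 and 0.06 with limma on tile levels.

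For 10 µM against 0.2 µM, 330 dense methylated tiles (30%) were higher at 10 µM, where 39.9% of all tiles and 64.5% of methylated tiles with under 40 positions were. Only 9 (0.818%) were lower, against 0.0779% of all tiles. The 330 had a median of 51 CpG positions and a 0.2 µM mean of 44.9%, and the 9 had a median of 75 positions and a 0.2 µM mean of 74.1%. The comparison shares its 0.2 µM libraries with the one before. Centred on the median change of all tiles (1.00 in natural log odds), 54 were higher and 338 lower, where 3.48% and 1.68% of all tiles were. The 9 lower calls became fewer without either 0.2 µM library, as did the lower calls over all tiles.

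Irf2bp1, a transcriptional corepressor that binds IRF2 (chr7:19005001-19006000), read 93.1% and 94.4% in DMSO, 11.7% and 17.1% with 0.2 µM, then 57.1%, 63.7% and 61.6% with 2 µM, and 78.9% and 91.6% with 10 µM. It rose by 70.8 points from 0.2 to 10 µM (adjusted p = 6.31e-06, at most 0.00205 under any alternative). The Klf2 tile reached 97.0% and 100% at 10 µM, a rise of 75.9 points (adjusted p = 0.000172). Mdfi, an inhibitor of myogenic helix-loop-helix factors whose start lies in the tile (chr17:47834001-47835000), read 17.7% and 18.7% at 0.2 µM and 82.9% and 70.6% at 10 µM. Cracr2b, a calcium-binding regulator of store-operated calcium channels (chr7:141461001-141462000), read 23.8% and 13.7% at 0.2 µM and 73.4% and 90.5% at 10 µM. Both were called higher at 10 µM under every alternative.

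The 3 called tiles with the largest fall from 0.2 to 10 µM had kept a high level at 0.2 µM. The tile at the start of Fam135a (chr1:24100001-24101000) read 93.8% and 88.2% in DMSO, 76.3% and 73.5% with 0.2 µM, then 55.4%, 56.5% and 57.7% with 2 µM, and 59.4% and 58.1% with 10 µM. Its 10 µM libraries lay just above those at 2 µM, and the difference of -16.2 points between 10 and 0.2 µM had an adjusted p of 0.0122 (0.08 without 0.2 µM replicate 1). Grip1, a scaffold of AMPA glutamate receptors (chr10:119454001-119455000, start in the tile), read 75.6% and 72.5% at 0.2 µM and 60.2% and 54.7% at 10 µM. Its adjusted p was 0.0141, 0.0868 without 0.2 µM replicate 1 and 0.0806 without 10 µM replicate 2. Tenm3, a teneurin of neuronal wiring (chr8:48555001-48556000), read 73.3% and 71.5% at 0.2 µM and 55.0% and 59% at 10 µM. Its adjusted p of 0.0188 was 0.0998 and 0.0629 without 0.2 µM replicates 1 and 2, 0.0936 without 10 µM replicate 1 and 0.0601 with limma on tile levels.

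**Figure D4:**
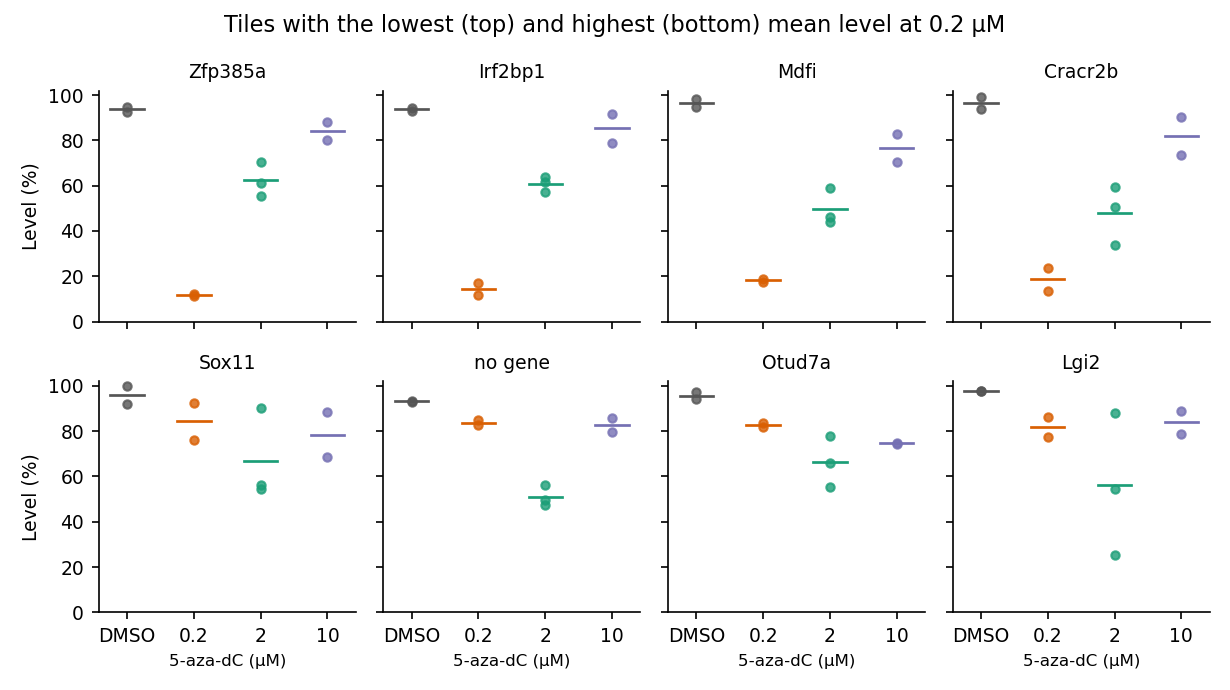
Methylation level (%) in each library (points) and group mean (bars) for the 4 dense methylated tiles with the lowest and the 4 with the highest mean level at 0.2 µM. Zfp385a, Irf2bp1, Mdfi and Cracr2b are lowest at 0.2 µM and climb with dose, while Sox11, the tile with no gene, Otud7a and Lgi2 differ from their DMSO means by -9.47 to -15.8 points at 0.2 µM.

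The 0.2 µM mean was highest at Sox11, a neural HMG-box transcription factor (chr12:27341001-27342000), at 92.5% and 76.2%. The tile on chromosome 1 with no gene, described above, came next, and then Otud7a, a deubiquitinase (chr7:63444001-63445000), at 83.6% and 81.8%. At 2 µM Sox11 read 90%, 54.3% and 56.2%, and Otud7a read 65.9%, 78.0% and 55.5%. Libraries overlapped at Sox11, which had as few as 17 reads in a library, and the adjusted p between 2 and 0.2 µM was 0.229 and 0.103. Lgi2 (chr5:52566001-52567000) read 86.4% and 77.4% at 0.2 µM but 88.1%, 54.5% and 25.5% at 2 µM, a spread wider than its difference between the doses.

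For 10 µM against 2 µM, 430 dense methylated tiles (39.1%) were higher at 10 µM, against 6.82% of all tiles and 13.4% of methylated tiles with under 40 positions. None was lower, at an adjusted or an unadjusted p under 0.05 and with limma on tile levels, and 0.018% of all tiles were. In 1064 of 1100 the mean was higher at 10 µM, against 78.6% of all tiles. The median difference was 15.4 points over the 1100, 8.75 over all tiles and 18.9 over methylated tiles with under 40 positions. The rise was thus not larger than in the other methylated tiles. The count was lower without either 10 µM library and without either DMSO library, as was the count over all tiles. With limma on tile levels it was 116, where 5.89% of all tiles were called. Centred on the median change of all tiles (0.52 in natural log odds), 0 of all 66788 tiles were called in either direction. Summed over CpG positions, dense methylated tiles also held more reads than the other methylated tiles, and the part of depth in these shares was not tested.

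Sipa1, a GTPase-activating protein for Rap (chr19:5654001-5655000), read 98.0% in both DMSO libraries, 35.9% and 53.9% with 0.2 µM, then 42.6%, 45.8% and 70% with 2 µM, and 96.9% and 98.5% with 10 µM. Its 10 µM libraries lay at the DMSO level, and it rose by 44.9 points from 2 to 10 µM (adjusted p = 0.00277). The tile that overlaps the microRNA gene Mir92b (chr3:89227001-89228000) read 18.4% and 31.8% with 0.2 µM, then 46.5%, 34.6% and 37.7% with 2 µM, and 78.9% and 93.1% with 10 µM. Its rise of 46.4 points had an adjusted p of 0.0039. The Zfp993 tile rose by 47.2 points (adjusted p = 0.00332, 0.0637 without 10 µM replicate 1). Sipa1 and Mir92b kept their calls under every alternative other than centring.

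Most dense methylated tiles lay within genes and away from gene starts. Of the 1057 classed tiles, 340 (32.2%) held a gene start, 657 (62.2%) lay in a gene without one and 60 (5.68%) lay outside genes. Among 6972 equally dense tiles under 20% in DMSO the shares were 62.3%, 34.9% and 2.87%. At 0.2 µM tiles with a start averaged 62.2% ± 0.00902 (SD, n = 2), those within genes 57.4% ± 0.187 and those outside 57.7% ± 0.00797. At 2 µM the 3 classes read 55.1%, 55.4% and 57.4%, and at 10 µM 69.9%, 71.8% and 70.3%. Tiles with a start also had more CpG positions, with a median of 66.5 against 58 and 47.

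Tiles in gene-poor surroundings kept more methylation at 0.2 µM. In the 420 tiles with 0 to 2 coding gene starts within 250 kb the 0.2 µM mean was 64.4% ± 0.178 (SD, n = 2). It was 61.2% ± 0.161 in the 294 tiles with 3 to 6, and 50.4% ± 0.00912 in the 343 with 7 or more. The 2 µM means were 56.9%, 54.9% and 54.2%, and the 10 µM means were 70.2%, 69.8% and 73.2%, highest with the most gene starts. Tiles in gene-rich surroundings had fewer CpG positions, with a median of 54 against 63. Within tiles of 40 to 59 positions the 0.2 µM means were still 61.2%, 57.3% and 45.8%, and within those of 60 or more they were 66.8%, 64.9% and 57.9%. Tiles with a gene start read 66.0%, 63.6% and 55.2%. Across the 1057 tiles Spearman's rho between the 0.2 µM level and the number of gene starts was -0.42, against -0.20 at 2 µM and 0.15 at 10 µM.

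The other methylated tiles had the same order at 0.2 µM over a smaller span, with 39.5%, 34.6% and 31.3%. With the most gene starts the dense tiles with 40 to 59 positions were lower at 0.2 µM (45.8%) than at 2 µM (54.1%). With the fewest they were higher (61.2% and 56.7%).

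**Figure D5:**
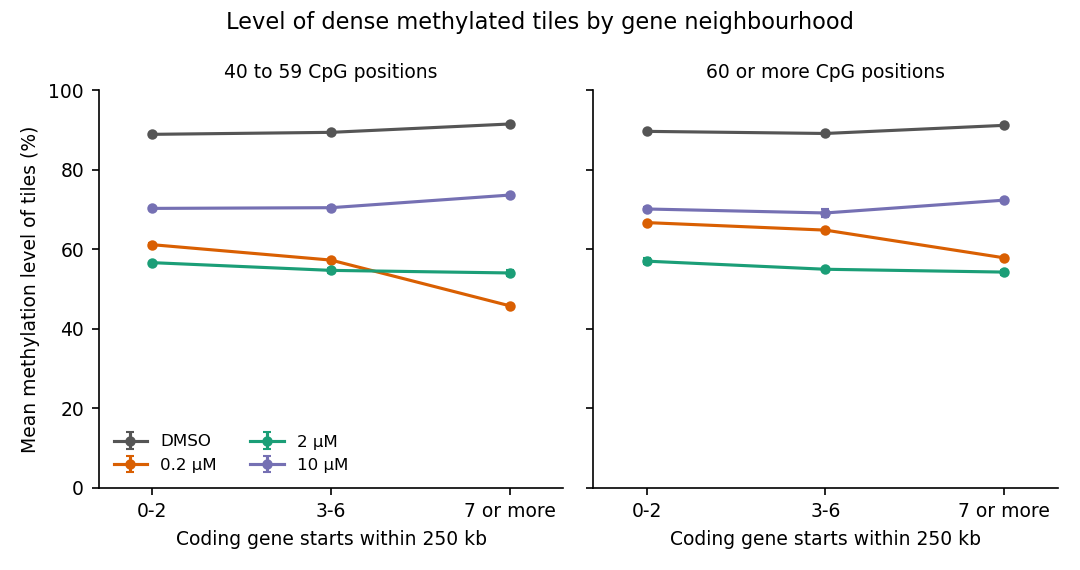
Mean methylation level (%) of dense methylated tiles by the number of coding gene starts within 250 kb, for tiles with 40 to 59 and with 60 or more CpG positions, with the SD over libraries as error bars. The 0.2 µM line falls from 61.2% to 45.8% on the left and from 66.8% to 57.9% on the right, while the other lines move by a few points.

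A run is a row of adjacent dense methylated tiles, and it also ends where the next tile had too few reads. The 1100 tiles formed 934 runs, of which 783 were single, 137 were pairs and 14 were longer. The longest run had 4 tiles in Filip1, which encodes a filamin-binding protein (chr9:79900001-79904000), with run means of 85.2% in DMSO and 52.2%, 55.4% and 65.7% at 0.2, 2 and 10 µM. Its 4 tiles read 44.4%, 50.1%, 47.7% and 66.5% at 0.2 µM in the order of their positions. A run of 3 in Prdm16, a zinc finger regulator of brown fat and stem cells (chr4:154635001-154638000), read 89.6%, 67.6%, 55.4% and 65.4% over 289 CpG positions. A run of 3 in Tmem200b (chr4:131920001-131923000) read 90.9%, 65.9%, 53.5% and 71.3%. With enough reads there were 635 other tiles next to a dense methylated tile, of which 51.2% were at 80% or above in DMSO, 44.6% between 20% and 80% and 4.25% under 20%.

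The tiles with the most CpG positions were in Fignl2, an AAA ATPase gene (154 positions), Tafa5, which encodes a secreted chemokine-like protein (145), and the adrenoceptor gene Adra2c (141). Fignl2 (chr15:101053001-101054000) read 95.1% and 97.0% in DMSO, 68.4% and 69.0% with 0.2 µM, then 55.6%, 43.6% and 48.0% with 2 µM, and 71.3% and 65.5% with 10 µM. Tafa5 (chr15:87624001-87625000) read 97.5% and 97.2%, 72.0% and 77.2%, 57.6%, 56.7% and 59.7%, and 69.9% and 65.3%. Both were called lower at 2 µM than at 0.2 µM (adjusted p = 0.0101 and 0.0187). Without 0.2 µM replicates 1 and 2 these were 0.0987 and 0.11 for Fignl2 and 0.0976 and 0.203 for Tafa5, and with limma on tile levels 0.0684 and 0.0852. Adra2c (chr5:35279001-35280000) read 64.8% and 58.7% at 0.2 µM and 56.0%, 57.3% and 52.6% at 2 µM (adjusted p = 0.387).

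The 1100 tiles overlapped 1026 genes. A gene was overlapped by 1038 tiles (94.4%), a coding gene by 995, and 184 tiles overlapped 2 or more genes. Most genes (833) had 1 such tile, 165 had 2, 24 had 3 and 4 had more. Bcl11b, the factor of T lineage commitment, had 5 tiles, with means of 89.6% in DMSO and 66.7%, 55.3% and 70% at 0.2, 2 and 10 µM. Nrg1, a ligand of ErbB receptors, had 4 with 91.7%, 70.7%, 61.3% and 69.8%, and Zfp503, a zinc finger regulator, had 4 with 90.3%, 63.1%, 57.0% and 70.6%.

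Germ cell and meiosis genes were present among them. Of the 16 autosomal tiles with 40 or more positions that overlap a listed germ cell gene, 11 (68.8%) were at 80% or above in DMSO, where 10.7% of all such tiles were. They overlapped Boll and Dazl, which encode RNA-binding proteins of germ cells, Ddx4, the piRNA pathway genes Henmt1, Mael, Tdrd5 and Tdrd6, and the meiosis genes Meioc and Terb1. Their median levels were 68.3% at 0.2 µM, 55.3% at 2 µM and 75.6% at 10 µM, beside 61.8%, 55.1% and 70.7% over all 1100. In 10 of 11 the mean was higher at 0.2 µM than at 2 µM, 3 were called so, and none was called in the other direction. For this and the lists that follow, the same shares over all 1100 were 69.5% by direction, 13.8% called lower at 2 µM and 7.09% called higher, and over all tested tiles 20%, 0.355% and 9.22%. The lists were chosen with results of these data known, and no list was tested against the other tiles. List tiles were not matched to the 1100 by CpG positions or gene surroundings, both of which went with the 0.2 µM level. The part of these in the list values was not tested.

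The germ cell tile with the most CpG positions, at the start of Boll (chr1:55363001-55364000, 83 positions), read 93.6% and 92.4% in DMSO, 79.9% and 61.9% with 0.2 µM, then 56.2%, 52.2% and 58.7% with 2 µM, and 54.8% and 77.6% with 10 µM. Tdrd5 (chr1:156303001-156304000) read 84.0% and 89.3%, 75.8% and 76.7%, 65.8%, 50.9% and 53.4%, and 71.5% and 69.9%. It was lower at 2 µM than at 0.2 µM by 19.5 points (adjusted p = 0.0172), which was 0.128 and 0.139 without 0.2 µM replicates 1 and 2, 0.0505 without 2 µM replicate 2 and 0.0899 with limma on tile levels. Boll was not called (adjusted p = 0.0800). Meioc (chr11:102665001-102666000) read 97.2% and 95.7%, 69.8% and 65.6%, 55.2%, 56.9% and 53.8%, and 74.2% and 88.0%, and rose by 25.8 points from 2 to 10 µM (adjusted p = 0.00627, 0.098 without 10 µM replicate 2).

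Imprinted genes, whose control regions are methylated by parent of origin, had 11 of 25 dense tiles (44%) at 80% or above, in Airn, Cdkn1c, Gnas, Grb10, Igf2, Igf2r and Zdbf2. All 11 had a higher mean at 0.2 µM than at 2 µM, with medians of 69.0% and 55.0%, and 4 were called (over all 1100, 69.5% by direction and 13.8% called). Igf2, a fetal growth factor (chr7:142659001-142660000), read 82.1% and 81.0% in DMSO, 62.8% and 61.4% with 0.2 µM, then 44.7%, 43.4% and 41.7% with 2 µM, and 65.9% and 62.9% with 10 µM. The 2 µM libraries lay below all others (difference from 0.2 µM -18.8 points, adjusted p = 0.0162, 0.142 and 0.118 without 0.2 µM replicates 1 and 2). Grb10, a growth-restricting adaptor protein (chr11:12037001-12038000), read 71.3% and 70% at 0.2 µM and 50.4%, 73.9% and 40.8% at 2 µM, so its libraries overlapped. Cdkn1c, a cyclin-dependent kinase inhibitor (chr7:143459001-143460000), read 67.9% and 70.2%, and 57.7%, 56.2% and 58.7% (adjusted p = 0.114).

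Developmental regulators gave the largest group, with 79 of 346 dense tiles (22.8%) in 52 genes. In 68 of the 79 the mean was higher at 0.2 µM than at 2 µM, beside 69.5% of all 1100. Of these genes' tiles 17 were called lower at 2 µM and none higher, beside 13.8% and 7.09% of all 1100 and 0.355% and 9.22% of all tiles, and medians were 65.5% at 0.2 µM, 55.1% at 2 µM and 69.2% at 10 µM. Nr2f2, an orphan nuclear receptor (chr7:70361001-70362000, 137 positions), read 92.8% and 95.4% in DMSO, 72.9% and 75% with 0.2 µM, then 51.3%, 50.6% and 55.5% with 2 µM, and 74.0% and 74.3% with 10 µM. It was lower at 2 than at 0.2 µM by 21.5 points (adjusted p = 0.00687, 0.0782 and 0.0948 without 0.2 µM replicates 1 and 2) and higher at 10 than at 2 µM by 21.7 points (adjusted p = 0.00852). Foxe1, a forkhead factor of the thyroid (chr4:46344001-46345000), read 72.3% in both 0.2 µM libraries, and 52.4%, 51.6% and 62.9% at 2 µM. Foxq1 (chr13:31559001-31560000) read 67.3% and 68.9%, and 49.6%, 55.1% and 49.6%, and Foxl2, a factor of the ovary (chr9:98956001-98957000), 70.5% and 67.1%, and 53.8%, 61.1% and 64.1%. The differences at Foxe1 and Foxq1 passed the threshold (adjusted p = 0.0232 and 0.0293) and that at Foxl2 did not (0.193). Neither of the 2 calls held without a 0.2 µM library, with adjusted p of 0.153 and 0.152 for Foxe1 and 0.155 and 0.187 for Foxq1. The Foxe1 call was also lost with limma on tile levels (0.103) and without 2 µM replicate 2 (0.0608). That at Foxq1 was lost with limma on tile levels (0.072), with a replicate block (0.0608), with 20 reads (0.0597) and without 2 µM replicate 3 (0.0633).

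Hox genes had 8 of 35 dense tiles (22.9%) at 80% or above, all with the higher mean at 0.2 µM (medians 59% and 49.8%), and 2 were called, beside 13.8% of all 1100. Hoxd11 (chr2:74682001-74683000) read 86.1% and 85.3% in DMSO, 68.2% and 63.5% with 0.2 µM, then 41.0%, 54.9% and 55.8% with 2 µM, and 66.0% and 70.7% with 10 µM. Its adjusted p between 2 and 0.2 µM was 0.0404 and reached 0.29 and 0.141 when 0.2 µM replicate 1 or 2 was left out, and 0.176 without 2 µM replicate 1. It was 0.148 with limma on tile levels and 0.0632 and 0.0610 without DMSO replicates 1 and 2.

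Zinc finger genes had 34 of 218 dense tiles (15.6%) at 80% or above, with 0.2 µM means from 11.8% (Zfp385a) to 80.4% (Zfp993), beside 11.8% to 84.3% over all 1100. By direction, 17 of 34 had the higher mean at 0.2 µM than at 2 µM, beside 69.5% of all 1100. Medians were 58.5% and 56.8%, 4 tiles were called lower at 2 µM and 6 higher (13.8% and 7.09% of all 1100, 0.355% and 9.22% of all tiles). At 10 µM 19 were called higher than at 0.2 µM, beside 30% of all 1100 and 39.9% of all tiles. Zfp316 had 2 adjacent tiles (chr5:143253001-143255000). The first read 69.2% and 74.4% with 0.2 µM, then 61.4%, 54.0% and 52.0% with 2 µM, and 72.7% and 59.6% with 10 µM, and the second 65.7% and 70.4%, 54.2%, 54.1% and 63.7%, and 83.7% and 86.6%.

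B lineage genes had 1 of 23 dense tiles (4.35%) at 80% or above, where 10.7% of all dense tiles were, in Pax5, the factor of B cell commitment (chr4:44664001-44665000, no start in the tile). It read 95.9% and 96.4% in DMSO, 48.3% and 43.2% with 0.2 µM, then 62.1%, 39.7% and 45.9% with 2 µM, and 76.2% and 87.1% with 10 µM. It was higher at 10 µM than at 0.2 µM by 35.9 points (adjusted p = 7.13e-05), which held under every alternative other than centring. Other blood lineages had 6 of 24 tiles (25%), 5 in Bcl11b and 1 in Eomes, a T-box factor of cytotoxic lymphocytes, all with the higher mean at 0.2 µM than at 2 µM and none called between these doses. Tumour suppressors had 7 of 31 (22.6%), and Hic1, a transcriptional repressor (chr11:75166001-75167000), read 97.1% and 97.3% in DMSO, 70.1% and 64.9% at 0.2 µM, and 59.8%, 59.1% and 55.8% at 2 µM (adjusted p = 0.19). Clustered protocadherins had 1 of 4. RNA was not analysed here, so the cell type of the label was not checked against marker RNA.

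The tiles just inside 80% in pooled DMSO read 80% (Pparg) and 80.1% (no gene), and those just outside read 79.95% (Zfp618) and 79.94% (Crhr1). Tiles with 40 positions averaged 53.1% at 0.2 µM, and tiles with 39 averaged 49.4%. The 3 tiles whose thinnest library had 10 reads averaged 41.0% at 0.2 µM, and the 3 with 9 reads 66.9%. Another 41 dense autosomal tiles had under 10 reads in a library and were not classed by level.

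Library depth was 8590883 to 16495535 reads at CpGs, and dense methylated tiles had a median of 142 to 348 reads per library. With 100 of 200 reads methylated, the Wilson interval at 95% confidence runs from 43.1% to 56.9%, and at 10 reads with 5 methylated from 23.7% to 76.3%. These reads are summed over the CpG positions of a tile, so a fragment that covers several CpGs is counted at each. PCR copies of a fragment may also be among the reads. Such intervals take every count as independent and cover counting error only, so they may be too narrow.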

How the data were processed

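Tables of 9 RRBS libraries of Abl.1 cells were used, from 1% DMSO and from 3 doses of 5-aza-dC on day 2. The authors deposited, per CpG, the methylated and all reads as a text entry and a score, which in every line equalled the methylated share times 1000, rounded down. Reads were taken from the text entry. The genome build was mm10, per the submitters' processing notes. Aligner and methylation caller: not given in the sources used here. Lines of odd width (1 to 2 per library) and repeated positions (18 to 68 lines) were left out. Gene names and promoter sequences came from RefSeq tables of GRCm38.p6, and all 223578 listed positions inside promoter windows fell on a CG there.

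Reads at each CpG were summed over the CpG positions of a tile of 1000 bases, and a level is methylated over all these reads. A fragment that covers several CpGs is thus counted at each. The test of a tile was a binomial model with 1 level per group over all 9 libraries. Reads were first scaled to an effective number in 5 coverage classes, where the correlation of reads in a tile ran from 0.0325 to 0.00894. Dispersion was moderated with limma 3.58.1 in R 4.3.3 (trend on coverage, not under 1), and p-values were adjusted by Benjamini-Hochberg over 66788 tiles at a threshold of 0.05. The test was tested on simulated data. Alternatives were limma on tile levels, no scaling, 20 reads, centring on the median change, a replicate block, leaving out each library, and other selection limits. The members and gene lists were chosen with earlier results of these data known. Tiles named are those with the most CpG positions (3), the 4 lowest and 4 highest at 0.2 µM, the 3 largest called differences per direction between doses without overlap of libraries, the 3 longest runs, listed genes (up to 4 tiles a list in full), and tiles at the limits. Bcl11b, Nrg1 and Zfp503, the genes with 4 or more tiles besides Filip1, were chosen after their values were seen.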

Additional observations from a re-analysis of the deposited data

How the results depend on the processing

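With a level of 90% for the selection, 594 tiles remained, with means of 94.1% in DMSO and 59.3%, 56.9% and 74.1% at 0.2, 2 and 10 µM. The other limits, a moved grid and a single DMSO library changed the number by less than 1.5 times. With 50 positions the means were 89.9% in DMSO, 62.1% at 0.2 µM and 70.8% at 10 µM, and with 20 reads 89.96% in DMSO. Unweighted over CpGs they were 90.2%, 59.8% at 0.2 µM and 71.2% at 10 µM. With tiles chosen on one DMSO library and measured in the other, they were 89.2%, 58.8% and 70.9%. In each of these settings 0.2 µM stayed above 2 µM and below 10 µM. Centring on the median change of all tiles gave, against DMSO, 170 lower and 6 higher calls at 0.2 µM (11.1% and 2.88% of all tiles). It gave 510 lower at 2 µM (8.38%) and 151 lower at 10 µM (1.12%). For 2 against 0.2 µM it gave 464 lower and 6 higher (1.43% and 0.654% of all tiles). For 10 against 0.2 µM it gave 338 lower and 54 higher (1.68% and 3.48%), and for 10 against 2 µM 0 higher, as among all 66788 tiles. Limma on tile levels called 172 lower for 10 µM against DMSO (6.50% of all tiles). For 2 against 0.2 µM it called 13 lower and 21 higher (0.123% and 5.81%). It also called 2 lower for 10 against 0.2 µM (0.199%) and 116 higher for 10 against 2 µM (5.89%). Without scaling, 258 were lower for 2 against 0.2 µM (0.762% of all tiles). Leaving out a library gave 44 to 783 lower calls for 10 µM against DMSO, 1 to 188 lower and 4 to 91 higher for 2 against 0.2 µM, 2 to 9 lower for 10 against 0.2 µM, and 170 to 356 higher for 10 against 2 µM. Leaving out a library also lowers the number of libraries, and the cause of these changes was not tested. Same-numbered libraries did not deviate together (r from -0.04 to 0.09 over the tiles). This check cannot decide whether the numbers pair libraries, since such deviations also hold counting error and the labels do not say. A replicate block leaves out 2 µM replicate 3. With this block the 2 against 0.2 µM counts were 111 lower and 67 higher (0.293% and 6.64% of all tiles), and every count was within 1.5 times. Of the 73 calls between doses among named tiles, 38 were lost with limma on tile levels, 10 with the block and 31 and 28 without 0.2 µM replicates 1 and 2, and none changed direction. In the unweighted mean over CpGs, added after seeing the data, all 152 lower calls and 77 of 78 higher calls for 2 against 0.2 µM kept their direction. Depth limits single tiles more than means over tiles.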
